A study of Mus musculus with 4 samples.

Results

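Purinergic receptors and ectonucleotidases, the receptors for nucleotides and adenosine and the surface enzymes that convert one into the other, were described across the cell classes of the mouse hippocampus. The 10 genes (P2ry12, P2ry13, P2ry6, P2ry14, P2rx4, P2rx7, Entpd1, Nt5e, Adora1 and Adora3) were taken by symbol from the 55403 features counted, and all 10 were found. The nuclei came from frozen, pooled hippocampus and were profiled with a droplet-based 3′ single-nucleus RNA kit in 4 libraries. The WT group had 1 library of wild-type mice. The PS19 group had 2 libraries of mice on a mixed B6;C3 background that carry human tau (MAPT) with the P301S mutation, driven by the prion protein (Prnp) promoter. The TG_PS19 group had 1 library of PS19 mice that also carry the SORLA-Rosa26 transgene, which overexpresses the sorting receptor SORLA from a CMV/β-actin promoter. The title of the series calls the tauopathy mice aged, but their age in months or weeks, their sex and the number in a pool are not given in the sources used here, and nothing says that the PS19 libraries came from separate animals, so p-values measure the spread between these samples, which may be technical. WT and TG_PS19 had no replicate, and in every test they were assumed to vary like the PS19 pair.

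Cells release ATP, ADP, UTP and UDP-sugars, and these nucleotides act on G-protein-coupled P2Y receptors and on P2X channels. The ectonucleotidase encoded by Entpd1 (CD39) removes phosphates from ATP and ADP, and the enzyme encoded by Nt5e (CD73) turns AMP into adenosine, which acts on adenosine receptors. In the brain this pathway is best known from microglia: P2RY12 steers their processes toward released ADP, and it falls when microglia leave their homeostatic state.

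The libraries held 4643 to 12762 barcodes and 20064025 to 48670533 unique molecular identifiers (UMIs, counted transcripts), with a median of 2643 to 3708.5 UMIs per barcode. Pairs of libraries shared 5 to 32 barcodes, at most 0.474% of the smaller library. Nuclei were grouped into classes by marker genes, without use of the 10 genes, and 11 classes held at least 50 nuclei in each library. A class name means that its clusters resembled that cell type by these markers. Microglia numbered 595 in WT, 263 and 295 in the PS19 libraries and 409 in TG_PS19, and all 10 of its markers (among them Cx3cr1, Csf1r and Tmem119) were detected in each library. The class consisted of 2 clusters that the groups filled differently: cluster 7 held 568 WT and 387 TG_PS19 nuclei but 56 and 62 PS19 nuclei, and cluster 13 had 207 and 233 nuclei of the PS19 libraries, 27 of WT and 22 of TG_PS19. TG_PS19 was of mixed sex by its nuclei: of its microglia 80 had a Y-linked UMI without Xist and 230 had Xist without a Y-linked UMI, while 182 and 196 PS19 microglia had a Y-linked UMI without Xist and 1 and 2 had Xist alone.

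The promoters of 4 members highest in microglia are shown: P2ry12, P2ry13 and P2rx4 were called in PS19 against WT microglia, and Adora3, which was called in no comparison, had motif matches in its window. The sequences are the 250 bases before the RefSeq transcription start (GRCm38.p6), 5′ to 3′, and capitals mark motif matches. P2ry12 lies at chr3:59262986-59263235 (minus strand), P2ry13 at chr3:59210883-59211132 (minus strand), P2rx4 at chr5:122707294-122707543 (plus strand) and Adora3 at chr3:105904171-105904420 (plus strand).
P2ry12: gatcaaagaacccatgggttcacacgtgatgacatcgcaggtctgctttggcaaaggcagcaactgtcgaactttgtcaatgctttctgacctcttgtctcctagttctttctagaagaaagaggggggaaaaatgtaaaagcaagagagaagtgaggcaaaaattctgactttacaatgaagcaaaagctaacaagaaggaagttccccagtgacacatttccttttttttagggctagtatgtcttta
P2ry13: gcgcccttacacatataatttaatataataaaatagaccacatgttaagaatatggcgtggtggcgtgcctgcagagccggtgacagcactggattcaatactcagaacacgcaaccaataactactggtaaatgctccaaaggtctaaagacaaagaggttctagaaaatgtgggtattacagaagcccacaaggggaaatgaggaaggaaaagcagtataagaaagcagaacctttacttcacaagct
P2rx4: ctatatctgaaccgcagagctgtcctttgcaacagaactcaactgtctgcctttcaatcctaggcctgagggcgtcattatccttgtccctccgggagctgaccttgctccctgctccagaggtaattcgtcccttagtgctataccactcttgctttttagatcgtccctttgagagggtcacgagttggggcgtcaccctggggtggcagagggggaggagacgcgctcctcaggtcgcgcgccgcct
Adora3: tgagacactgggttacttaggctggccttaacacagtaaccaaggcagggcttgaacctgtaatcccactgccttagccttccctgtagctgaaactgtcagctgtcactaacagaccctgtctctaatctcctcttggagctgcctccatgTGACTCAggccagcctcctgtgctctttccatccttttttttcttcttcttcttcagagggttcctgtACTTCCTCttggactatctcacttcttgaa
Both strands were searched for GAGGAAGT (PU.1), GAAANNGAA (interferon regulatory factors), TGANTCA (AP-1) and CTANAAATA (MEF2), which occur in 2.44%, 7.13%, 6.75% and 1.41% of the 32851 promoter windows of that length. Of the 4 windows printed, the Adora3 window alone held matches, an AP-1 match that begins 98 bases before the start and a reverse PU.1 match that begins 30 bases before it. Among the other members, AP-1 matches stood in windows of P2ry14, P2rx7 and Adora1 and a MEF2 match in a window of Entpd1. No match says only that these letters are not in the window. RefSeq promoter windows were found for 9 of the 10 genes, all but P2ry6.

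The members fell into distinct cellular patterns. Levels are counts of the gene scaled to the summed UMIs of the class (CPM), and 7 of the 10 genes were highest in microglia: P2ry12, P2ry13, P2ry6, P2rx4, P2rx7, Entpd1 and Adora3. P2ry14 was highest in mural cells, which are cells of the vessel wall, Nt5e in fibroblasts and Adora1 in oligodendrocyte precursors. These orders cover the 11 tested classes only and are descriptions without a test. The mural cell class was a single cluster with Atp13a5, Abcc9 and Vtn among its leading genes. A cluster of 36 nuclei led by the smooth muscle genes Myh11 and Acta2 stayed unnamed and is not in the mural cell values.

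**Figure D1:**
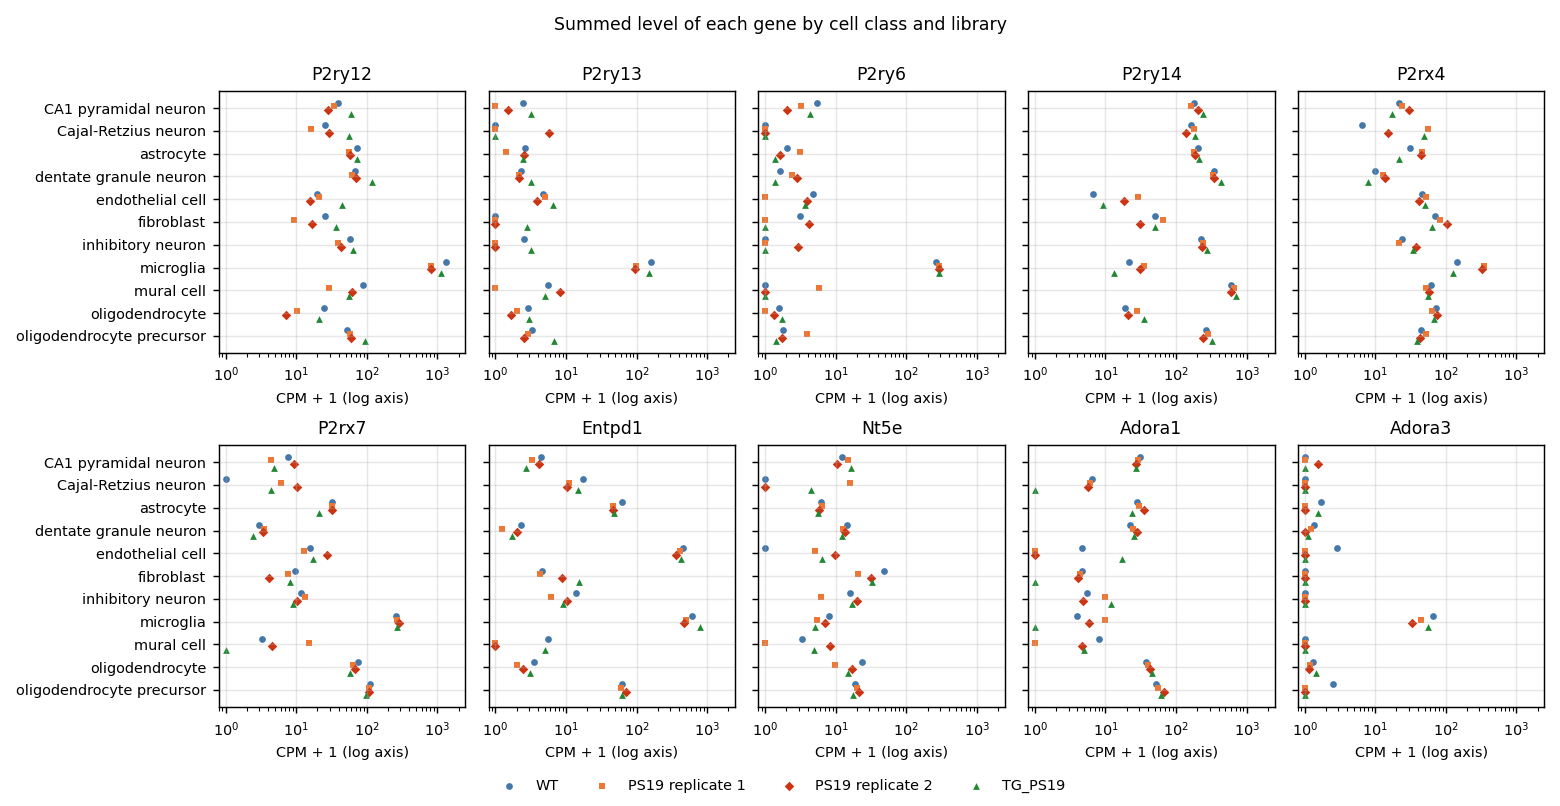
Each panel plots 1 gene: the x axis is its summed level (CPM + 1, log axis) and the y axis the 11 cell classes, with 1 point per library. P2ry12 reached 804 to 1316 CPM in microglia and 6.14 to 23.5 CPM in oligodendrocytes, whereas P2ry14 reached 600.3 to 702 CPM in mural cells.

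P2ry13, a second ADP receptor, and P2ry6, a UDP receptor linked to phagocytosis, were nearly restricted to microglia by their levels. P2ry13 had 93.7 to 160.0 CPM in microglia (lowest to highest library) and at most 7.19 CPM in any library of the other tested classes. P2ry6 had 267 to 293 CPM in microglia and 2.75 ± 1.42 CPM (SD, n = 4 libraries) in CA1 pyramidal neurons, the next class. Adora3, an adenosine receptor that couples to inhibitory G proteins, had 32.4 to 64.2 CPM in microglia and a mean of at most 0.463 CPM elsewhere. For these 3 genes the second class overlapped with the third in its range over libraries.

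P2ry12 was highest in microglia by a factor of 12.9 over the next class, dentate granule neurons (78.6 ± 25.3 CPM, SD, n = 4). Microglia held 27.6% to 47.2% of its UMIs in named nuclei, and dentate granule neurons 22.6% to 32.6%. To set this against free RNA in the droplets, each level was expressed as a percentage of the microglial level of the same library. In dentate granule neurons P2ry12 stood at 5.16% to 10.4% of its microglial level, while the 10 microglial markers summed to 0.508% to 0.700% of theirs. In oligodendrocytes P2ry12 stood at 0.764% to 1.81% and the marker sum at 1.25% to 1.71%, so there its level was like that of the markers. The P2ry12 share thus lay above the marker share in dentate granule neurons of all 4 libraries. The same held in CA1 pyramidal, inhibitory and Cajal-Retzius neurons, astrocytes, oligodendrocyte precursors and mural cells. This excess was therefore not particular to dentate granule neurons. In oligodendrocytes, endothelial cells and fibroblasts the P2ry12 share lay on both sides of the marker share.

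P2ry12, P2ry13 and P2ry14 lie in one locus, inside the gene Med12l (chromosome 3, 59005825 to 59318682, plus strand), on the opposite strand. P2ry12 spans 59216272 to 59262871, P2ry13 59207892 to 59210882 and P2ry14 59113855 to 59153618 (GRCm38). Whether the counting used the strand is not given in the sources used here, so reads of Med12l and of the 3 receptors cannot be told apart on that ground. Med12l was also highest in microglia, with 532 to 870.1 CPM. Next by mean came dentate granule neurons (251 CPM), oligodendrocyte precursors (186), mural cells (178) and inhibitory neurons (176). Dentate granule neurons and oligodendrocyte precursors also followed microglia for P2ry12, and the same classes without microglia led for P2ry14. The part of Med12l reads in the receptor levels was not tested.

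P2ry14, the receptor for UDP-glucose, had another distribution. Mural cells had 600.3 to 702 CPM, dentate granule neurons 329 to 432 CPM, oligodendrocyte precursors 241 to 321 CPM and inhibitory neurons 222 to 271 CPM. Mural cells and dentate granule neurons did not overlap with the next class, but oligodendrocyte precursors and inhibitory neurons did. Dentate granule neurons held 46.8% to 50.7% of all P2ry14 UMIs in named nuclei. Microglia (12.3 to 34.2 CPM) and endothelial cells (5.56 to 28.0 CPM) were at the low end.

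The ATP-gated channels P2rx4 and P2rx7 differed in their second class. P2rx7, the channel that opens at high ATP, had 259 to 282 CPM in microglia, 97.7 to 111 CPM in oligodendrocyte precursors, 56.5 to 73.7 CPM in oligodendrocytes and 19.8 to 31.2 CPM in astrocytes, with no overlap between these 4 classes. P2rx4 had 125 to 348 CPM in microglia, 63.7 to 103 CPM in fibroblasts and 63.3 to 73.5 CPM in oligodendrocytes, the last 2 overlapping. Oligodendrocytes, the most numerous class, held 33.7% to 44.1% of the P2rx4 UMIs and 39.5% to 42.6% of the P2rx7 UMIs in named nuclei.

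Entpd1 had 2 high classes: microglia with 475 to 791 CPM and endothelial cells with 357 to 454 CPM, followed by oligodendrocyte precursors with 58.7 to 70.2 CPM. Nt5e, the next enzyme of the chain, was low throughout, with 19.9 to 46.8 CPM in fibroblasts and 4.11 to 6.91 CPM in microglia, and neighbours in its order overlapped from the first to the sixth class. Adora1, the main inhibitory adenosine receptor of the brain, had 51.5 to 65.7 CPM in oligodendrocyte precursors, 36.5 to 45.2 CPM in oligodendrocytes and 25.7 to 29.98 CPM in CA1 neurons, and 0 to 8.92 CPM in microglia. Microglia, the class with the highest Entpd1, ranked below 6 of the other classes for Nt5e and below 7 for Adora1.

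PS19 was compared with WT to describe these genes in the presence of the tau transgene. Summed counts were tested within each class with edgeR's quasi-likelihood F-test, adjusted over all genes of the class by Benjamini-Hochberg, and a gene was called at an adjusted p under 0.05. Of 65 pairs of member and class that passed the low-count filter, 6 were called (2 higher and 4 lower in PS19), beside 2.86% of all 131104 pairs of gene and class (1.4% higher and 1.46% lower). In microglia 3 of the 8 members tested were called, beside 8.48% of all genes, with a median log2 fold change of −0.13 over the 8 and 0.01 over all genes. Nt5e and Adora1 did not pass the filter in microglia.

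P2ry12 was at 1316 CPM (95% Poisson interval 1246 to 1388) in WT microglia, at 824 (757 to 895) and 804 (744 to 867) in the PS19 libraries, while TG_PS19 had 1112 (1037 to 1192). The PS19 libraries were the lowest and did not overlap with the others. P2ry12 was lower in PS19 than in WT by a log2 fold change of −0.70 (SE 0.15, edgeR adjusted p 0.000175). The call ended with doublets kept (−0.36, edgeR adjusted p 0.283) and with DESeq2 (adjusted p 0.0713). The sum of the 10 microglial markers went the same way, with 14299 CPM in WT, 11681 and 10480 CPM in the PS19 libraries and 12746 CPM in TG_PS19. Markers of other classes in the same nuclei did not all move alike: the 7 border-associated macrophage markers summed to 49.4 CPM in WT, 205 and 267 in PS19 and 220.3 in TG_PS19, the 6 oligodendrocyte precursor markers to 61.2, 280 and 36.0, and 94.4 CPM, and the 8 T cell markers to at most 3.95 CPM. Their part in the microglial results was not tested.

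P2ry13 followed its neighbour, with 160.0 CPM in WT, 96.6 and 93.7 in PS19 and 151 in TG_PS19. Its log2 fold change in PS19 against WT was −0.76 (SE 0.21, edgeR adjusted p 0.00639), a call that ended with doublets kept, in thinned nuclei and with DESeq2. Med12l, whose gene contains both, went from 870.1 CPM in WT to 532 and 565 in PS19, at −0.67 (SE 0.16, edgeR adjusted p 0.00052). In other tested classes Med12l was not called in this comparison.

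P2rx4, an ATP-gated cation channel, went the other way in the same nuclei. It had 141 CPM (119 to 166) in WT, 348 (305 to 395) and 329 (291 to 371) in the PS19 libraries, and TG_PS19 had 125 (100.3 to 153). Both PS19 libraries lay above both other libraries, and the log2 fold change of PS19 against WT was 1.25 (SE 0.19, edgeR adjusted p 2.12e-09), and of the alternatives that gave a test only DESeq2 did not call it. After thinning every nucleus to 1000 UMIs, P2rx4 was seen in 12.7% of WT microglia, 25.9% and 24.8% of PS19 and 12.5% of TG_PS19 microglia, beside 19.7%, 48.3%, 46.8% and 19.1% unthinned. Thinned dentate granule neurons, as a class with little P2rx4, gave 0.805% to 1.46%. Median depths were 1606 to 2571 UMIs in microglia and 6470 to 10121 in dentate granule neurons.

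The other microglial members did not pass the test in this comparison. Entpd1 had 613 CPM in WT and 499.6 and 475 in PS19 (log2 fold change −0.34, SE 0.16, edgeR adjusted p 0.218). Adora3 had 64.2 CPM in WT and 43.1 and 32.4 in PS19 (−0.78, SE 0.31, edgeR adjusted p 0.108). Adora3 shares its strand and part of its span with Tmigd3, and Tmigd3 was called in microglia at −1.82 (SE 0.43, edgeR adjusted p 0.000618). Reads in the shared part cannot be told apart. P2ry6 (267, 293 and 291 CPM) and P2rx7 (259, 266 and 282 CPM in WT and the PS19 libraries) differed by 0.12 (SE 0.17) and 0.08 (SE 0.17). P2ry14 had 20.7 CPM in WT and 34.2 and 30.03 in PS19 (0.61, SE 0.42, edgeR adjusted p 0.49), and −0.66 with doublets kept.

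**Figure D2:**
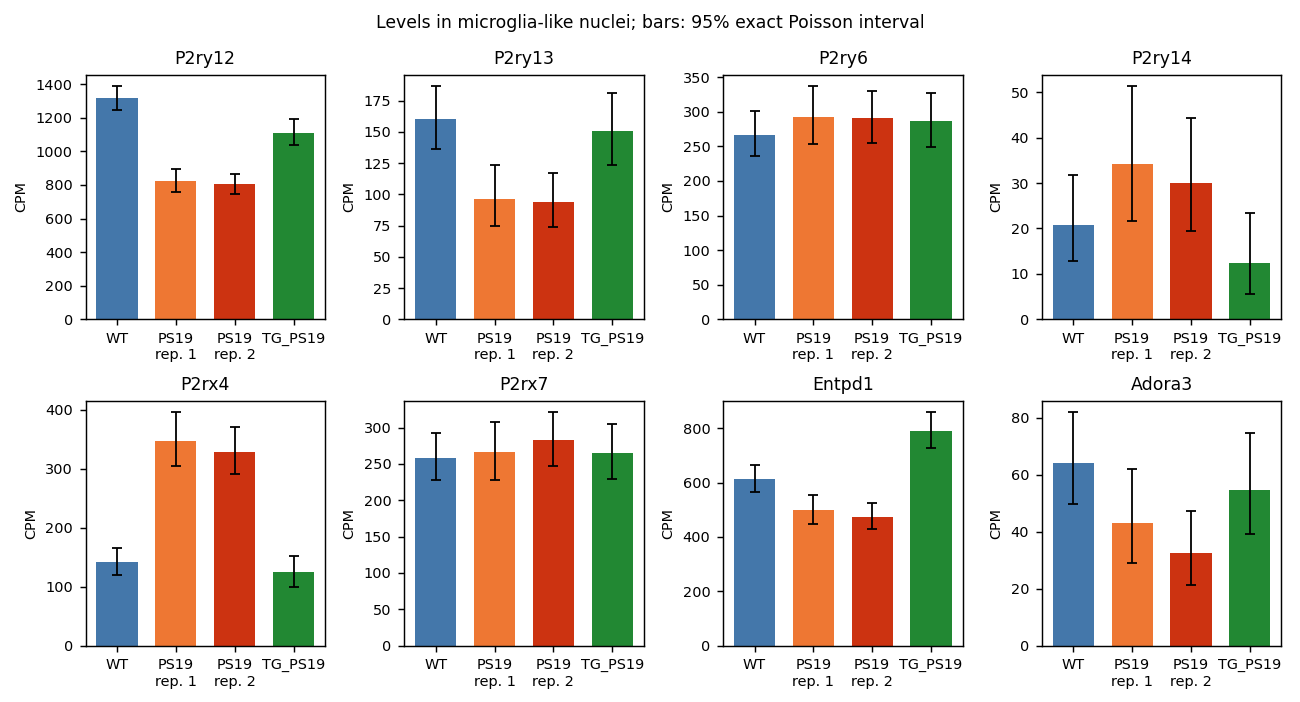
Bars give the level (CPM, y axis from 0) of 8 members in microglia for each library on the x axis, with 95% exact Poisson intervals that cover counting error only. P2ry12 and P2ry13 were lowest and P2rx4 highest in both PS19 libraries, and P2ry6 and P2rx7 had overlapping intervals in all 4 libraries.

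Outside microglia 3 calls were made in PS19 against WT, in classes where 5.74% (astrocytes) and 6.82% (oligodendrocytes) of all genes were called. P2rx4 was higher in astrocytes (29.2 normalised CPM in WT, 44.1 and 43.3 in PS19, log2 fold change 0.58, SE 0.18, edgeR adjusted p 0.0304), but the call ended under 5 alternatives: doublets kept (0.49, edgeR adjusted p 0.106), no low-count filter, clustering at resolution 2.0, thinned nuclei and DESeq2. P2ry12 was lower in oligodendrocytes (22.9 against 9.26 and 6.17 normalised CPM, −1.59, SE 0.23, edgeR adjusted p 4.5e-10). As a percentage of the microglial level it stood near the microglial markers there. The sum of these markers in oligodendrocytes was 245 CPM in WT and 175 and 131 in PS19. The part of microglial RNA in this call was not tested. Nt5e was lower in oligodendrocytes (21.8 against 8.64 and 15.8 normalised CPM, −0.80, SE 0.21, edgeR adjusted p 0.00461), but it was −0.46 without PS19 replicate 1 and −1.32 without PS19 replicate 2, and the call ended with library totals as scaling, in thinned nuclei and with DESeq2. DESeq2 on the same sums called 0 of the 65 pairs, while 3 had an unadjusted p under 0.05, all among the edgeR calls, and its adjusted p was 0.0556 for P2rx4 in microglia.

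TG_PS19 was compared with PS19, which differs from it in its labels by the SORLA transgene. TG_PS19 is 1 library of mixed sex, so the transgene, the sex of the animals and the library cannot be told apart in this contrast. This contrast shares the PS19 libraries with the comparison above, so the 2 sets of values are given side by side and not as independent results. Of the 65 pairs 13 were called, 11 higher and 2 lower in TG_PS19, beside 4.52% of all pairs (2.94% higher and 1.58% lower). In microglia 4 of 8 members were called, beside 9.09% of all genes, and the median log2 fold change was 0.30 over the 8 and −0.01 over all genes.

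In microglia P2rx4 was lower in TG_PS19 than in PS19 by a log2 fold change of −1.35 (SE 0.20, edgeR adjusted p 3.12e-09). Entpd1 was higher: its 791 CPM (728 to 858) in TG_PS19 lay above all other libraries, and the difference from PS19 was 0.79 (SE 0.16, edgeR adjusted p 3.2e-05). P2ry13 was higher by 0.75 (SE 0.22, edgeR adjusted p 0.012) and P2ry12 by 0.54 (SE 0.16, edgeR adjusted p 0.0094). The calls of Entpd1, P2ry13 and P2ry12 ended under alternatives given in the next paragraph, and with DESeq2 (adjusted p 0.0938, 1 and 0.336), while P2rx4 was called in every alternative that gave a test. Med12l was higher by 0.70 (SE 0.16, edgeR adjusted p 0.000316). P2ry6 (286 CPM in TG_PS19, 0.06, SE 0.18), P2rx7 (265 CPM in TG_PS19, 0.04, SE 0.18) and Adora3 (0.64, SE 0.34, edgeR adjusted p 0.289) did not pass, nor did P2ry14 (−1.27, SE 0.51, edgeR adjusted p 0.103), which had 34.2 and 30.03 CPM in PS19 and 12.3 in TG_PS19. Beside Adora3, Tmigd3 was higher in TG_PS19 by 2.96 (SE 0.39, edgeR adjusted p 9.16e-12).

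When TG_PS19 was limited to nuclei with a Y-linked UMI and no Xist, which left 80 microglia, P2rx4 was at −1.65 (edgeR adjusted p 0.0119). P2ry12 (0.56, edgeR adjusted p 0.156), Entpd1 (0.66, p 0.115) and P2ry13 (0.35, p 0.735) were then no longer called. With doublets kept, P2ry12 in microglia was at 0.27 for TG_PS19 against PS19 (edgeR adjusted p 0.459), so its calls in both comparisons rest on leaving doublets out. The microglial calls of P2ry13 and Entpd1 ended as well, that of P2ry13 in TG_PS19 against PS19 also without microglial clusters raised in markers of another class (0.67, edgeR adjusted p 0.0606), and P2rx4 stayed called with doublets kept, at 1.54 and −1.61. In nuclei thinned to 1000 UMIs P2ry12 was called in PS19 against WT (−0.58, edgeR adjusted p 0.00674) and not in TG_PS19 against PS19 (0.39, edgeR adjusted p 0.174), and P2ry13 was called in neither.

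In TG_PS19 against WT microglia edgeR called 0 of the 8 members, and 1 had p under 0.05 before adjustment. DESeq2 also called 0, with 0 under 0.05 before adjustment, beside 0.873% of all genes called by edgeR. The member with p under 0.05 before adjustment was Entpd1 (0.45, SE 0.18, edgeR adjusted p 0.342). In both groups 1 library stands alone, and their spread is that of the PS19 pair. The groups also differ in sex: 288 WT microglia had a Y-linked UMI without Xist and 12 had Xist alone, while TG_PS19 was mixed.

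Levels were also read within each microglial cluster, as a description without a test. In cluster 7 P2rx4 had 141 CPM in WT, 180.3 and 142 in PS19 and 115 in TG_PS19, and P2ry12 had 1356, 1142 and 1340, and 1140 CPM. In cluster 13 P2rx4 had 148 CPM in WT (8 UMIs), 383 and 372 in PS19 and 278 in TG_PS19, and P2ry12 had 591, 757 and 681, and 672 CPM. In sums over the class, a shift in the mix of its nuclei and a change of level within nuclei cannot be told apart.

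Microglia were therefore also clustered alone, again without the members. Clusters with at least 3 markers, and at least 50% of the list, of another class raised were set aside as mixed. Of the rest, clusters were called disease-associated microglia-like (DAM-like) where at least 4 of 16 markers such as Apoe, Lpl, Itgax and Clec7a were raised. At resolution 1.0 mixed clusters held 17 nuclei of WT, 21 and 19 of the PS19 libraries and 12 of TG_PS19. These nuclei are in neither the DAM-like nor the other microglia. The 16 markers summed to 2752 CPM in WT, 5708 and 4362 in PS19 and 2241 in TG_PS19 microglia. DAM-like clusters had 121 and 145 nuclei of the PS19 libraries, 14 of WT and 3 of TG_PS19, so the states were compared within the PS19 libraries only, as a description without a test. There were 3 such clusters: one led by Ccl4 and Clec7a, one of 30 nuclei led by interferon-response genes (Cxcl10, Mx1, Ifit2), and one of 55 nuclei with Gpnmb, Spp1 and Lpl but also the endothelial markers Mecom, Slco1a4 and Flt1 among its 10 leading genes. In the PS19 libraries P2ry12 had 670.1 and 540.0 CPM in DAM-like nuclei and 1156 and 1161 CPM in the other microglia. P2ry13 had 49.5 and 75.8 CPM against 164 and 130 CPM, and Entpd1 436 and 396 CPM against 642 and 613 CPM. P2rx4 was on the opposite side, with 485 and 499.8 CPM in DAM-like and 232 and 162 CPM in other nuclei. P2ry14 had 39.6 and 37.9 CPM in DAM-like nuclei, from 12 and 16 UMIs, against 7.13 and 2.95 CPM from 2 and 1 UMIs. P2ry6 (290.5 and 322 against 317 and 262 CPM), P2rx7 (254 and 298 against 235 and 274 CPM) and Adora3 (49.5 and 21.3 against 42.8 and 53.0 CPM) had overlapping intervals within each PS19 library. Intervals of DAM-like and other nuclei also overlapped for P2ry13 in PS19 replicate 2 and for P2ry14 in PS19 replicate 1.

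The number of DAM-like nuclei depended on the clustering resolution, with 157 and 179 in the PS19 libraries at 0.5, 121 and 145 at 1.0 (as above) and 75 and 95 at 2.0, where TG_PS19 had 0. At 2.0 the cluster with endothelial markers had 6 of 8 of them raised and was not counted as DAM-like. In both PS19 libraries P2ry12, P2ry13 and Entpd1 were lower and P2rx4 and P2ry14 higher in DAM-like nuclei at each of the 3 resolutions. Adora3 in PS19 replicate 1 changed direction, from −0.52 (DAM-like over other nuclei, log2 scale) at 0.5 to 0.17 at 1.0 and −0.45 at 2.0. Without the cluster that had endothelial markers, which held 27 and 24 of the DAM-like nuclei, P2ry12 had 765 and 594 CPM in DAM-like nuclei, P2rx4 441 and 525, P2ry13 48.1 and 74.6, Entpd1 455 and 424, and P2ry14 30.6 and 32.8 CPM. These values lay on the same side of the other microglia as with that cluster kept.

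**Figure D3:**
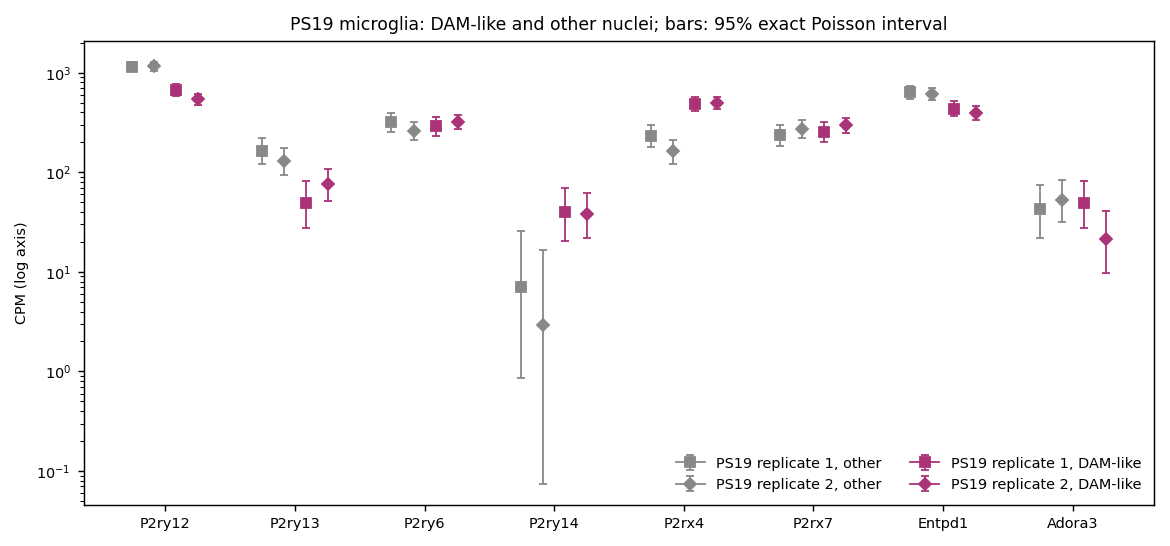
Points give the level (CPM, log y axis) of 8 members on the x axis in DAM-like and other microglia of PS19 replicates 1 and 2, with 95% exact Poisson intervals. The DAM-like values were lower for P2ry12, P2ry13 and Entpd1 and higher for P2rx4 and P2ry14 in both libraries. Intervals overlapped for P2ry13 in PS19 replicate 2 and for P2ry14 in PS19 replicate 1.

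Microglia outside the DAM-like and mixed clusters could also be set side by side between groups. These microglia had 1361 CPM of P2ry12, 142 of P2rx4 and 635 of Entpd1 in WT. Those of TG_PS19 had 1142, 118 and 798 CPM. For Entpd1 the TG_PS19 value lay above those of WT and of both PS19 libraries outside the DAM-like and mixed clusters. The groups filled these other clusters differently. A cluster with Atp8a2 and Lag3 among its leading genes held 93 of 121 and 90 of 131 such nuclei of the PS19 libraries. It held 21 of 564 in WT and 16 of 394 in TG_PS19. The part of this mix in the values was not tested.

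Of the P2Y receptors of the Med12l locus, P2ry12 was called higher in TG_PS19 than in PS19 in 6 of 11 classes tested, P2ry14 in 3 of 10 and P2ry13 in 1 of 3. P2ry12 lay above 0 in all 11, and its 6 calls were in CA1 neurons, astrocytes, dentate granule neurons, microglia, oligodendrocytes and oligodendrocyte precursors. Of all genes 3.58%, 8.81%, 5.15%, 9.09%, 9.36% and 1.94% were called in these classes, in this order. Dentate granule neurons had 67.9 CPM of it in WT, 60.9 and 69.5 in PS19 and 116 (109 to 124) in TG_PS19. TG_PS19 was the highest library and the other 3 had overlapping intervals. The difference was 0.92 against PS19 (SE 0.11, edgeR adjusted p 0.000374) and 0.89 against WT (SE 0.13, edgeR adjusted p 0.00251). These 2 calls held under all alternative settings that gave a test, DESeq2 and thinning included. The sum of microglial markers in these neurons was 93.5 CPM in WT, 81.8 and 66.8 in PS19 and 64.8 in TG_PS19. The part of microglial RNA or of Med12l reads in these calls was not tested.

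In CA1 pyramidal neurons P2ry12 had 37.5 CPM in WT, 33.7 and 27.3 in PS19 and 58.9 in TG_PS19, which gave 1.07 against PS19 (SE 0.21, edgeR adjusted p 2.6e-05) but 0.04 when nuclei were thinned to 1000 UMIs, and the call also ended with no low-count filter. In oligodendrocyte precursors it had 50.7 to 59.6 CPM in WT and PS19 and 93.3 in TG_PS19 (0.76 against PS19, SE 0.20, edgeR adjusted p 0.0133). That call ended under 4 alternatives: library totals (0.68, edgeR adjusted p 0.0624), thinned nuclei (1.13, p 0.124), TG_PS19 nuclei with a Y-linked UMI and no Xist (0.50, p 0.531) and DESeq2. In astrocytes the difference was 0.53 (SE 0.16, edgeR adjusted p 0.0151) and 0.17, no longer called, in nuclei with a Y-linked UMI. The astrocyte call also ended with library totals (0.36), in thinned nuclei (0.18), at clustering resolution 2.0 and with DESeq2. In oligodendrocytes it was 1.47 (SE 0.23, edgeR adjusted p 5.02e-08), at the low levels given above. The microglial markers there summed to 175 and 131 CPM in PS19 and 178 in TG_PS19, and the part of microglial RNA was not tested.

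P2ry14 lay above 0 in 9 of 10 classes tested. Dentate granule neurons had 349 CPM in WT, 329 and 340 in PS19 and 432 (418 to 446) in TG_PS19, a difference of 0.46 (SE 0.09, edgeR adjusted p 0.0114) from PS19 that was 0.32 and not called in thinned nuclei (edgeR adjusted p 0.335). CA1 neurons differed by 0.50 (SE 0.14, edgeR adjusted p 0.0195), or by 0.31 and 0.69 without PS19 replicate 1 and 2, and the call ended under 6 alternatives (library totals, DESeq2, no low-count filter, resolution 2.0, thinned nuclei, and TG_PS19 nuclei with a Y-linked UMI and no Xist). Oligodendrocytes differed by 0.61 (SE 0.17, edgeR adjusted p 0.00789), or by 0.83 and 0.40 without PS19 replicate 1 and 2, and the call ended with library totals, DESeq2, thinned nuclei and the nuclei with a Y-linked UMI. The class below 0 was microglia, given above.

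The P2Y-like receptor Gpr171 lies in the same locus, from 59096448 to 59101821, opposite to Med12l. Gpr171 was higher in TG_PS19 in 6 of 6 classes tested and called in CA1 neurons (1.43, SE 0.34, edgeR adjusted p 0.0015) and dentate granule neurons (0.82, SE 0.18, edgeR adjusted p 0.0169). Med12l, which spans them all on the other strand, was higher in 6 of 10 classes and called in microglia alone, with 0.13 (SE 0.10) in dentate granule neurons. Whether counting by strand would change these values was not tested.

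**Figure D4:**
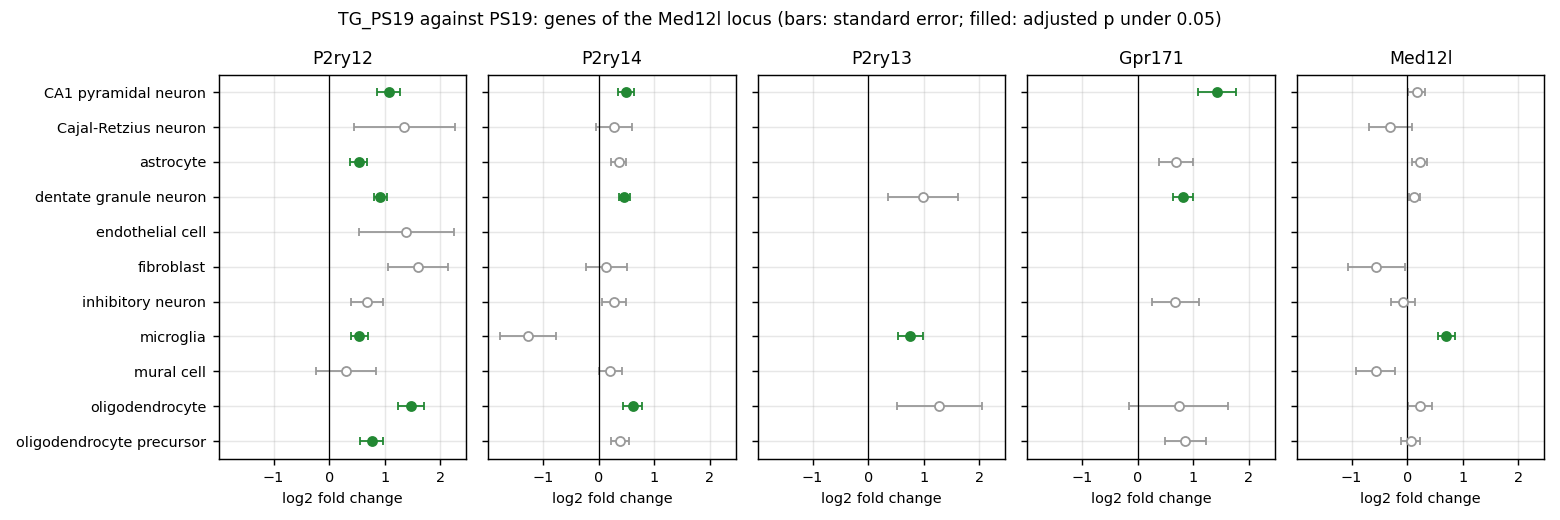
Panels plot, for TG_PS19 against PS19, log2 fold changes (x axis, bars are standard errors) of 5 genes of the Med12l locus in each tested class (y axis), with filled points for calls. P2ry12, P2ry13 and Gpr171 lay above 0 in every class in which each was tested, and Med12l lay on both sides of 0.

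P2rx4 in astrocytes also differed between TG_PS19 and PS19, with 22.8 normalised CPM against 44.1 and 43.3 (−0.93, SE 0.20, edgeR adjusted p 0.000192). It was at −1.05 in nuclei with a Y-linked UMI and still called, but not at clustering resolution 2.0 (−0.93, edgeR adjusted p 0.0525) or with DESeq2 (adjusted p 0.362). P2rx4 in oligodendrocytes, with the larger share of its UMIs, differed by −0.01 (SE 0.14) in PS19 against WT and 0.03 (SE 0.14) in TG_PS19 against PS19, and neither passed. The difference between these classes was not tested. Adora1 (−0.25 to 0.31 over 6 classes in PS19 against WT) was called in no class, and neither was P2ry6 in 3 classes or P2rx7 in 7.

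In TG_PS19 against WT 4 of 65 pairs were called, all higher in TG_PS19, beside 1.87% of all pairs (1.35% higher and 0.519% lower): P2ry12 in dentate granule neurons, CA1 neurons (0.69) and oligodendrocyte precursors (1.00), and P2ry14 in oligodendrocytes (1.00). Of all genes 2.48%, 2.97%, 0.812% and 3.4% were called in dentate granule neurons, CA1 neurons, oligodendrocyte precursors and oligodendrocytes. The call in dentate granule neurons held under all alternatives that gave a test, and the other 3 ended under some: P2ry12 in CA1 neurons under 6 (library totals, no low-count filter, doublets kept, resolution 2.0, thinned nuclei, nuclei with a Y-linked UMI), P2ry12 in oligodendrocyte precursors under 4 (library totals, DESeq2, thinned nuclei, nuclei with a Y-linked UMI) and P2ry14 in oligodendrocytes under 2 (library totals, edgeR adjusted p 0.0989, and thinned nuclei, p 0.0683). Both groups were single libraries. Of all kept nuclei, 7882 of WT had a Y-linked UMI without Xist and 27 had Xist alone, beside 2213 and 4462 of TG_PS19. Genotype, sex and library cannot be told apart in this contrast.

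The wider purinergic list of 46 genes covered further receptors, enzymes, transporters and release channels, and 39 passed the filter in at least 1 class. In PS19 against WT edgeR called 12 of its 200 pairs, all 12 lower, beside 2.86% of all pairs (1.46% lower), and 37 had an unadjusted p under 0.05. In TG_PS19 against PS19 it called 16, of which 15 were higher and 1 lower, beside 4.52% of all pairs (2.94% higher and 1.58% lower). The median log2 fold change over the 200 pairs was −0.02 and 0.07, beside 0.01 and −0.01 over all genes. The connexins and several other genes of the list count in more than 1 class. The microglial members of the list with calls in both comparisons were Gpr34, a lysophosphatidylserine receptor (−0.66, edgeR adjusted p 0.000713, and 1.08, edgeR adjusted p 6.38e-10), and Lpar6, a lysophosphatidic acid receptor (−0.89, p 0.000152, and 0.64, p 0.0327). Pnp, which cleaves purine nucleosides, was higher in TG_PS19 microglia (1.06, SE 0.28, edgeR adjusted p 0.00379).

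In astrocytes Cd38, an NAD glycohydrolase, was at −0.70 in PS19 against WT (edgeR adjusted p 0.00075) and 0.60 in TG_PS19 against PS19 (p 0.009), and Gpr34 at −1.33 (p 0.00235) and 1.20 (p 0.0143). Adora2b, a stimulatory adenosine receptor, was lower in TG_PS19 astrocytes (−0.83, p 0.006995). In oligodendrocytes Ampd3, an AMP deaminase, was at −0.79 (p 0.00631) and 1.05 (p 3.91e-05), Gpr34 at −1.34 (p 0.00025) and 1.33 (p 0.00034), Adora2b at −1.91 in PS19 against WT (p 0.0244), and Gpr17, a receptor of maturing oligodendrocytes, at 1.81 in TG_PS19 against PS19 (p 0.000409). All p-values here are edgeR's adjusted p. Gpr34 is a gene of microglia, and the sum of the 10 microglial markers went from 184 CPM in WT astrocytes to 143 and 112 in PS19, with 126 in TG_PS19, and in oligodendrocytes from 245 CPM to 175 and 131, with 178 in TG_PS19. The part of microglial RNA in the Gpr34 calls was not tested.

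Further calls were those of the connexins Gja1 and Gjb6, which form astrocyte gap junctions and are also markers of the astrocyte class. Gja1 was called in classes other than astrocytes. It was at −2.28 and 2.22 in microglia, −2.004 and 1.74 in oligodendrocytes, −1.68 and 1.36 in dentate granule neurons, and −2.06 in mural cells in PS19 against WT. Gjb6 was at −1.69 and 1.22 in oligodendrocytes. The 8 astrocyte markers summed to 730 CPM in WT microglia, 507 and 446 in PS19 and 692 in TG_PS19, and to 537, 254 and 222, and 401 CPM in oligodendrocytes. In dentate granule neurons they summed to 914, 911 and 949, and 887 CPM. The part of astrocyte RNA in these calls was not tested.

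Over the 62 sums of class and library, the genes with the pattern most like a member (Pearson's r of log2(CPM + 10), members left out, at least 200 UMIs) were Glrp1, Ccr6 and Itgam for P2ry13 (r 0.972 to 0.977) and Ntpcr, Gm50035 and Gm2629 for P2ry6 (r 0.966 to 0.972). P2ry14 was nearest to Pkia, 4933424G05Rik and Mboat2 (0.822 to 0.858), Entpd1 to Gm37082, Stab1 and Tal1 (0.832 to 0.848) and P2ry12 to Gm46411, Zfp710 and Gtf2h2 (0.803 to 0.821). P2rx4 was nearest to Arl10, Hyi and Zfp90 (0.789 to 0.791), P2rx7 to Rassf2, Scoc and Pip4k2a (0.736 to 0.786), Nt5e to Vmn2r84, Phf11c and Gm47469 (0.776 to 0.808) and Adora1 to Gm17922, Gpd1 and C230086J09Rik (0.763 to 0.808). Adora3 had 191 UMIs in named nuclei and was left out. Sums of one library share its depth and free RNA, and some sums are very small, so these values are descriptions. The T cells of TG_PS19 were 1 nucleus with 757 UMIs, where a single UMI put Nt5e at 1321 CPM. P2rx7 also had 1 UMI and 1321 CPM there. The weight of such points in r was not tested.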

How the data were processed

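Single-nucleus UMI counts per gene and barcode were deposited by the authors, who ran Cell Ranger 7.1.0, per the file headers, on the GRCm38 build, per the submitters' processing notes. The strand setting and the counting of intron reads are not given in the sources used here. Barcodes with at least 500 UMIs, 300 genes and at most 5% mitochondrial UMIs were kept, doublets were removed with simulated doublets at 0.8% per 1000 barcodes (3.70% to 10.2% per library), and 29616 nuclei remained. They were clustered (2000 variable genes, 30 principal components, 15 neighbours, Leiden resolution 1.0, leidenalg 0.10.2, scikit-learn 1.9.0, Python 3.11.15) without the 10 genes, the wider purinergic list, Y-linked and mitochondrial genes, Xist and Tsix. The symbols MAPT, Mapt, SORL1 and Sorl1 were also left out, while X-linked genes other than Xist and Tsix were not. The 47 clusters were named from 18 marker lists, and 2134 nuclei stayed unnamed.

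Counts were summed per class and library, filtered with filterByExpr, scaled by TMM and tested with edgeR 4.0.16 (quasi-likelihood F-test, R 4.3.3), all 4 libraries in one fit. Its 1 residual degree of freedom comes from the 2 PS19 libraries, whose counts varied beyond counting error in each of the 11 tested classes (chi-square per degree of freedom 1.49 to 2.96). Normalised CPM are TMM-scaled. On simulated microglial counts the test recovered 32% of genes changed by 1 on the log2 scale and 83.8% of those changed by 2. It also called 8 unchanged genes. The simulation gave all genes and libraries the same spread and changed only genes with higher counts, so rates in the real data may differ. Intervals for levels are exact Poisson intervals and those for shares exact Clopper-Pearson intervals, at 95%, and cover counting error only. DESeq2 1.42.0 and the other alternatives are in the closing section.

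Text names all 10 members in classes of at least 50 nuclei per library, genes of the wider list called in PS19 against WT or TG_PS19 against PS19 (a call that is counted but not named is not reported here), and the 3 genes nearest in pattern to each member with at least 200 UMIs. The members, lists and tests were chosen with earlier results of these data known.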

Additional observations from a re-analysis of the deposited data

How the results depend on the processing

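The 23 calls of members kept their direction in every alternative run. Of the calls that each alternative could test, with DESeq2 15 were no longer called, in nuclei thinned to 1000 UMIs 14, in TG_PS19 nuclei with a Y-linked UMI and no Xist 9, with library totals as scaling 8, with doublets kept 7, at clustering resolution 2.0 5, with no low-count filter 4, and without microglial clusters raised in markers of another class (chosen after seeing the data) 1. The count of members lower in DAM-like than in other microglia of both PS19 libraries was 5 and became 3 without the DAM-like cluster with endothelial markers (chosen after seeing the data): Nt5e and Adora1, with at most 2 UMIs each per library in those nuclei, no longer counted. RLE scaling, a robust prior, adjusted residual degrees of freedom and fits of the 2 groups alone lost 0. Of 65 pairs, edgeR called 6, 13 and 4 in these contrasts (PS19 to WT, TG_PS19 to PS19, TG_PS19 to WT), and DESeq2 called 0, 3 and 1. Thinning gave 3, 5 and 1. Nuclei with a Y-linked UMI and no Xist gave 6 in TG_PS19 against PS19 and 2 in TG_PS19 against WT, and library totals gave 2 in the latter. Library totals moved the median of all genes by up to −0.17 (astrocytes, TG_PS19 against PS19). The direction of some microglial members that were not called turned. P2ry14 with doublets kept was −0.66 (PS19 against WT), 0.91 (TG_PS19 against its PS19 controls) and 0.25 (TG_PS19 against WT). In TG_PS19 against PS19, P2rx7 was −0.0493 with library totals, −0.28 with doublets kept and −0.00296 to 0.0846 when either PS19 replicate was left out, and P2ry6 was −0.0293 with library totals, −0.31 with doublets kept and −0.23 in nuclei with a Y-linked UMI. In TG_PS19 against WT, P2ry13 was 0.00872 with no filter, 0.0241 at resolution 2.0 and 0.11 thinned, Adora3 was 0.0118 with doublets kept and 0.0801 in nuclei with a Y-linked UMI, P2rx4 was 0.0838 thinned and P2ry6 −0.0865 in nuclei with a Y-linked UMI. The cause was not tested. No paired analysis was possible because the groups compared share fewer than 2 replicate numbers.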

Other observations

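Classes too small to test held members as well. In other excitatory neurons (25 to 121 nuclei per library) Adora1 had 49.95 CPM in WT, 73.0 and 35.3 in PS19 and 73.1 in TG_PS19. The PS19 replicate 1 and TG_PS19 values lay above those of oligodendrocyte precursors, and the WT and PS19 replicate 2 values below. In T cells Entpd1 had 113 and 157 CPM in the PS19 libraries, from 4 and 6 UMIs, and Nt5e 113 and 26.2 CPM, from 4 and 1 UMIs. In ependymal cells P2rx7 had 96.0 and 88.5 CPM in the PS19 libraries, from 7 and 5 UMIs.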
